A study of Mus musculus with 20 samples.

Results

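The genes described here make sterols and fatty acids in mouse dendritic cells and their progenitors. A list of 28 gene symbols was taken, and 27 of them had a probe set of their own among the 18193 genes measured. Acat2 was not analysed here. The 27 genes fall into a sterol branch of 17 genes, a fatty acid branch of 6 genes, and 4 genes of control and transport. Each gene was read from the probe set with its highest mean over the 20 arrays.

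RNA was hybridised to Affymetrix Mouse 430 2.0 arrays, with 2 arrays for each of 10 groups of C57BL/6 bone marrow origin. Plasmacytoid dendritic cells (pDC), known for interferon production, and conventional dendritic cells (cDC), known for antigen presentation, were both differentiated from expanded progenitors. The common dendritic cell progenitor was sampled directly from marrow (in vivo CDP) and after expansion (CDP), and the multipotent progenitor (MPP) was likewise expanded from marrow. A separate set of expanded CDP was untreated (0 h) or received the cytokine TGF-β1 for 4, 8, 12 or 24 h. The title of the series concerns faster dendritic cell formation under TGF-β1 and a bias to the conventional subset. No dose, age of mice or number of cultures is given in the sources used here, and nothing says that the 2 arrays of a group came from separate cultures or animals. The p-values below therefore measure the spread between arrays, which may be technical. No untreated sample of 4 to 24 h was analysed here, so TGF-β1 and elapsed hours cannot be told apart.

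Cells make cholesterol from acetyl-CoA through mevalonate, farnesyl diphosphate, squalene and lanosterol, and make fatty acids from the same acetyl-CoA through malonyl-CoA. The transcription factors SREBP-2 (gene Srebf2) and SREBP-1 (gene Srebf1) switch on both branches, with SREBP-2 known mainly for sterol genes and SREBP-1c for fatty acid genes. When membrane sterol is plentiful, INSIG proteins hold the SREBP escort SCAP in the endoplasmic reticulum, and the nuclear receptor LXR, which senses oxysterols, drives cholesterol export genes and Srebf1. In dendritic cells, lipid synthesis is known to supply membranes of the endoplasmic reticulum and Golgi.

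Values are log2 intensities as deposited, and levels were compared only for the same gene and within the same set of arrays. The 10 arrays of pDC, cDC, in vivo CDP, CDP and MPP shared a floor of 2.25, and the 10 TGF-β1 arrays did not, so these 2 sets were kept apart. All 27 genes passed the filter on low values in every fit, a value above 5 on at least 2 arrays. A gene is called here when its limma adjusted p was under 0.05. The pDC and cDC marker lists had their highest means in the cells of that label. Of the pDC markers 6 of 6 were above 7 on both pDC arrays, and of the cDC markers 5 of 6 on both cDC arrays. The lists were not exclusive, with 3 of 6 pDC markers above 7 on both cDC arrays and 3 of 6 cDC markers on both pDC arrays. Itgax, a cDC marker, measured 11.07 and 11.28 in pDC, against 10.55 and 10.40 in cDC. Of 4 CDP markers, 4 were above 7 on both in vivo CDP arrays and 3 on both CDP arrays, and of 4 MPP and stem cell markers 3 were above 7 on both MPP arrays. All 4 CDP markers were also above 7 on both cDC arrays. Kit, a stem cell marker, measured 11.31 and 10.89 in cDC, against 9.73 and 9.68 in MPP. Markers of erythroid, B, T and NK, adipose and stromal cells lay at or within 0.01 of the floor as list means on the 10 arrays that share it. Granulocyte markers were present in progenitors, with 6 genes averaging 9.88 and 10.56 on the in vivo CDP arrays, 8.14 and 8.95 on the CDP arrays and 11.18 and 11.64 on the MPP arrays. They averaged 3.51 and 3.57 on the pDC arrays. These differences in marker levels run alongside every comparison of those populations, and their part in the results was not tested.

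The 2 arrays of some groups differed for lipid genes. In CDP, replicate 2 lay above replicate 1 for 14 of 17 sterol genes and 6 of 6 fatty acid genes, with median gaps of 0.86 and 1.29. In MPP the same held for 16 of 17 and 6 of 6 genes, with median gaps of 0.87 and 1.04. The median gap over all genes tested was 0.00 in CDP and 0.01 in MPP, so the median gene did not share the shift. Among pDC arrays the sterol genes ran the other way, with replicate 2 above replicate 1 for 1 of 17 genes and a median gap of -0.38. Replicate 1 at 4, 12 and 24 h of TGF-β1 stood apart for another reason. Their Gapdh 3′ probe set exceeded the 5′ one by 2.09, 2.61 and 2.78, against 0.01 to 0.10 on the other 7 TGF-β1 arrays. The same measure for actin was lower in the mature cells, with 0.84 and 0.94 in pDC and 0.69 and 0.84 in cDC. It was 1.23 and 2.11 in CDP and 1.91 and 2.04 in MPP. For Gapdh, the arrays of CDP overlapped with those of pDC and of cDC. The part of this measure in the differences between these populations was not tested.

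**Figure D1:**
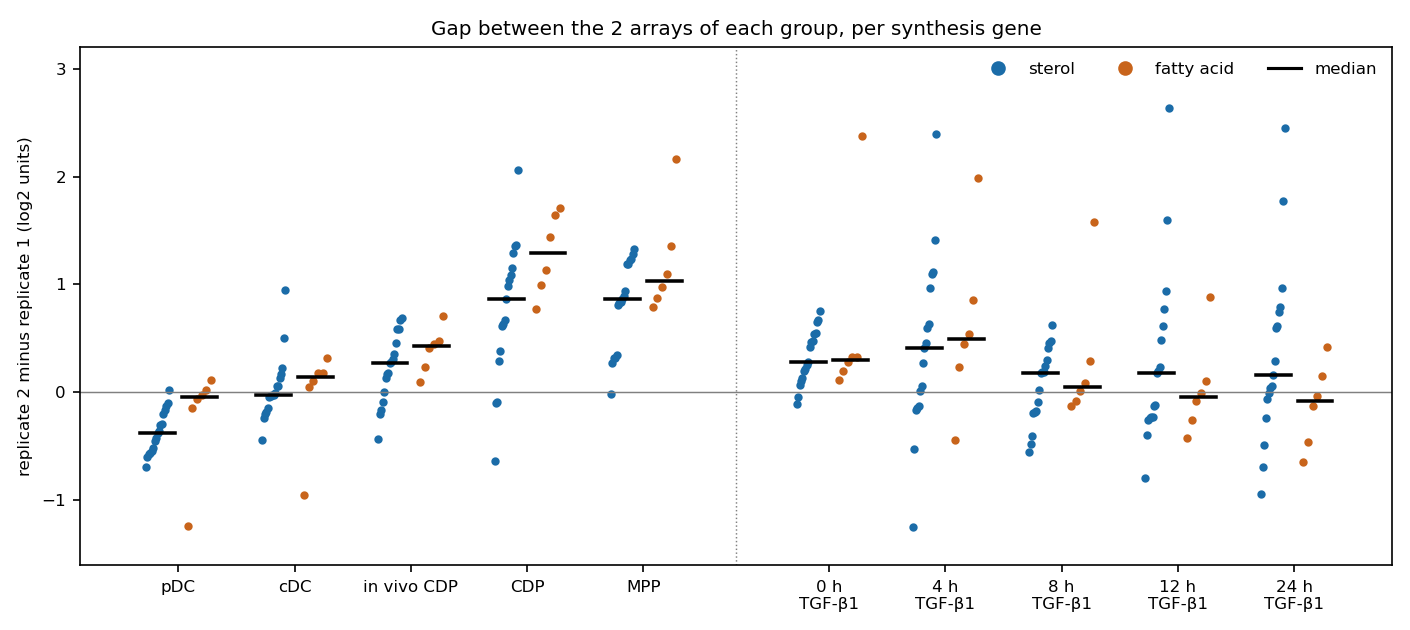
The vertical axis is replicate 2 minus replicate 1 in log2 units for each sterol gene (blue) and fatty acid gene (orange), with groups on the horizontal axis and black bars at the medians. The CDP and MPP gaps lie mostly above 0, with sterol medians of 0.86 and 0.87, and the pDC sterol gaps lie mostly below 0, with a median of -0.38.

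Sterol genes were high in pDC. Over the 5 populations, pDC had the highest mean for 15 of 17 sterol genes, and for 10 of these both pDC arrays lay above all 8 other arrays, beside 19.3% and 12.1% of all 9121 genes. In vivo CDP had the lowest mean for 13 of 17, and for 12 of them both in vivo arrays lay below all others, beside 16.8% and 9.87% of all genes. The fatty acid genes did not share this order: MPP had the highest mean for 5 of 6, beside 20.4% of all genes, and CDP for the other one, Scd2, each with overlapping arrays. The lowest fatty acid means belonged to in vivo CDP for 3 genes, to cDC for 2 and to pDC for 1. The 3 genes include Scd1, which was under 5 on both arrays of in vivo CDP, cDC and pDC. Its order among these groups therefore carries no meaning. Thus neither mature cell type led the fatty acid branch on these arrays.

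Against CDP, pDC had 12 of 27 genes called, 11 higher and 1 lower, beside 53.2% of all 8900 genes called in either direction, 21.7% called higher and 31.6% called lower. Of the 17 sterol genes 10 were higher and none lower, and the median sterol difference was 1.40 on the log2 scale, against -0.14 over all genes tested. The 6 fatty acid differences had a median of -0.68, with Scd1 alone called, and this median rested on 1 array: it was -0.03 without CDP replicate 2, with Elovl6 and Scd2 then above 0, and -1.35 without CDP replicate 1. The sterol median was 2.06 without CDP replicate 2 and 0.92 without CDP replicate 1. In bulk RNA, a difference in the share of cells of a type cannot be told apart from more RNA per cell. The count fell to 5 without pDC replicate 1 and to 7 without CDP replicate 1, and to 5 with no filter on low values, where 41.8%, 47.6% and 31.2% of all genes were called.

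At the head of the pathway, Hmgcs1 encodes the synthase that makes HMG-CoA. It measured 13.52 and 13.22 in pDC, against 10.91 and 11.54 in CDP. Both pDC arrays lay above both CDP arrays, a difference of 2.15 ± 0.26 (SE) or 4.42-fold, with adjusted p = 0.000612. The other Hmgcs1 probe sets gave differences of 2.17 to 3.72 in the same direction. Mvd, the decarboxylase that forms isopentenyl diphosphate, measured 8.08 and 7.47 in pDC, against 5.70 and 6.37 in CDP (1.74 ± 0.45, adjusted p = 0.0149). Idi1, which isomerises that product, measured 12.45 and 11.76 in pDC, against 9.73 and 11.02 in CDP (1.73 ± 0.55, adjusted p = 0.0336). The 2 Idi1 arrays of CDP were 1.29 apart, almost as far as the groups, but both lay below the pDC arrays. Pmvk, a mevalonate pathway kinase, rose by 0.94 ± 0.28. Mvk, the kinase before it, measured 6.06 and 6.08 in pDC, against 5.54 and 5.92 in CDP, and was not called (adjusted p = 0.183).

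Of the squalene and lanosterol steps, Fdft1, Sqle and Cyp51 were called. Fdft1, which condenses farnesyl diphosphate to squalene, measured 11.75 and 11.31 in pDC, against 9.06 and 10.43 in CDP (1.79 ± 0.52, adjusted p = 0.0248). Sqle, the epoxidase of squalene, measured 10.88 and 10.59 in pDC, against 8.68 and 9.66 in CDP (1.57 ± 0.39, adjusted p = 0.0134). For both genes the pDC arrays lay above the CDP arrays. Cyp51, which removes a methyl group from lanosterol, measured 11.14 and 10.72 in pDC, against 8.92 and 10.01 in CDP (1.46 ± 0.48, adjusted p = 0.0377). Lss, the lanosterol synthase, measured 8.30 and 7.92 in pDC, against 6.68 and 7.83 in CDP, and was not called (adjusted p = 0.187). Fdps, the farnesyl diphosphate synthase, measured 12.27 and 11.70 in pDC, against 10.95 and 11.57 in CDP, and was not called either (adjusted p = 0.135).

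Later steps held the largest difference. Msmo1, the sterol C-4 methyl oxidase, measured 12.38 and 11.84 in pDC, against 9.58 and 10.45 in CDP (2.10 ± 0.39, 4.27-fold, adjusted p = 0.00394). Sc5d, the desaturase near the end of the pathway, measured 11.04 and 10.84 in pDC, against 8.51 and 8.80 in CDP (2.28 ± 0.28, 4.87-fold, adjusted p = 0.000680). Its CDP arrays agreed within 0.29, so the gap between groups was many times the gap between arrays. Hsd17b7, the keto reductase of C-4 demethylation, measured 8.83 and 8.26 in pDC, against 6.46 and 7.82 in CDP (1.40 ± 0.43, adjusted p = 0.0298). Of the 7 sterol genes not called, 6 had positive differences of 0.05 to 1.31 and Ebp, a sterol isomerase, had -0.24.

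Upstream sequences of the 3 sterol genes with the largest pDC difference, and of Fasn as a fatty acid gene that did not share it, are shown because these genes moved together or apart. The genes were picked after their values were seen. Sequences are the 250 bases before the annotated start, from RefSeq on build GRCm38.p6, read 5′ to 3′ on the gene's strand, and 21 of the 27 genes had an entry. Capitals mark matches on either strand to the sterol regulatory element TCACNCCAC, which SREBP binds, or to CCAAT, the core letters bound by NF-Y, a known partner of SREBP. In Fasn one run of capitals holds both orientations of CCAAT, which overlap. Hmgcs1 lies at chr13:119690101-119690350 on the plus strand. Msmo1 lies at chr8:64733579-64733828, Sc5d at chr9:42264301-42264550 and Fasn at chr11:120824548-120824797, all on the minus strand.
Hmgcs1: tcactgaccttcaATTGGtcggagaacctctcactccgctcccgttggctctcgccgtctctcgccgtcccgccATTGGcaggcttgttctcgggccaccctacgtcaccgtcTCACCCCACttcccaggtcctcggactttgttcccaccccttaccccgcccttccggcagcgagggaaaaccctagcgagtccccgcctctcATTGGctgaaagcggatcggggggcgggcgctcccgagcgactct
Msmo1: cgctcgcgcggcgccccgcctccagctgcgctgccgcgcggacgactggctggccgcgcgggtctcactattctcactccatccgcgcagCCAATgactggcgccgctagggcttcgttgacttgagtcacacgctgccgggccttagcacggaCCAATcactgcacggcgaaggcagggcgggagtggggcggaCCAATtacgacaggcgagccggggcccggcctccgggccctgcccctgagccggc
Sc5d: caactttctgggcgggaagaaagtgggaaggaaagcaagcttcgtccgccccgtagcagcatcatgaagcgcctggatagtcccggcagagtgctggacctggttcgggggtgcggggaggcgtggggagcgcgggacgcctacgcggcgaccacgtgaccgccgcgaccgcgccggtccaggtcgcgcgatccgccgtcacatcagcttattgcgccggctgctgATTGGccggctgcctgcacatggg
Fasn: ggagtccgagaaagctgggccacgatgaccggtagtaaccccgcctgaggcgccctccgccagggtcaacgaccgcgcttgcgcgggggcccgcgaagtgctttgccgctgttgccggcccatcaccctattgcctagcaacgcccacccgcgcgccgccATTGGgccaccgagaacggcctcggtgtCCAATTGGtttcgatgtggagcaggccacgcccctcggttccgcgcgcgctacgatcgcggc

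Hmgcs1 held the only match to TCACNCCAC among the 26 windows of these 21 genes, here 250 bases before to 50 after the start. That motif was in 1.24% of all 32851 mouse windows. CCAAT was in 14 of 17 sterol windows, which covered 14 of 14 sterol genes, and in 2 of 4 fatty acid windows, against 37.4% of all windows and 37.3% of windows of genes tested on the TGF-β1 arrays. Other motifs were also searched on both strands. GGGCGG, the core letters of a GC box, was in 14 of 17 sterol windows and 1 of 4 fatty acid windows, against 35.7% of all windows and 59.4% of those of tested genes. CACGTG, an E-box, was in 3 of 17 and 0 of 4, against 7.15% of all windows and 9.58% of those of tested genes. Genes with several starts have several windows, and a match says only that these letters occur there.

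**Figure D2:**
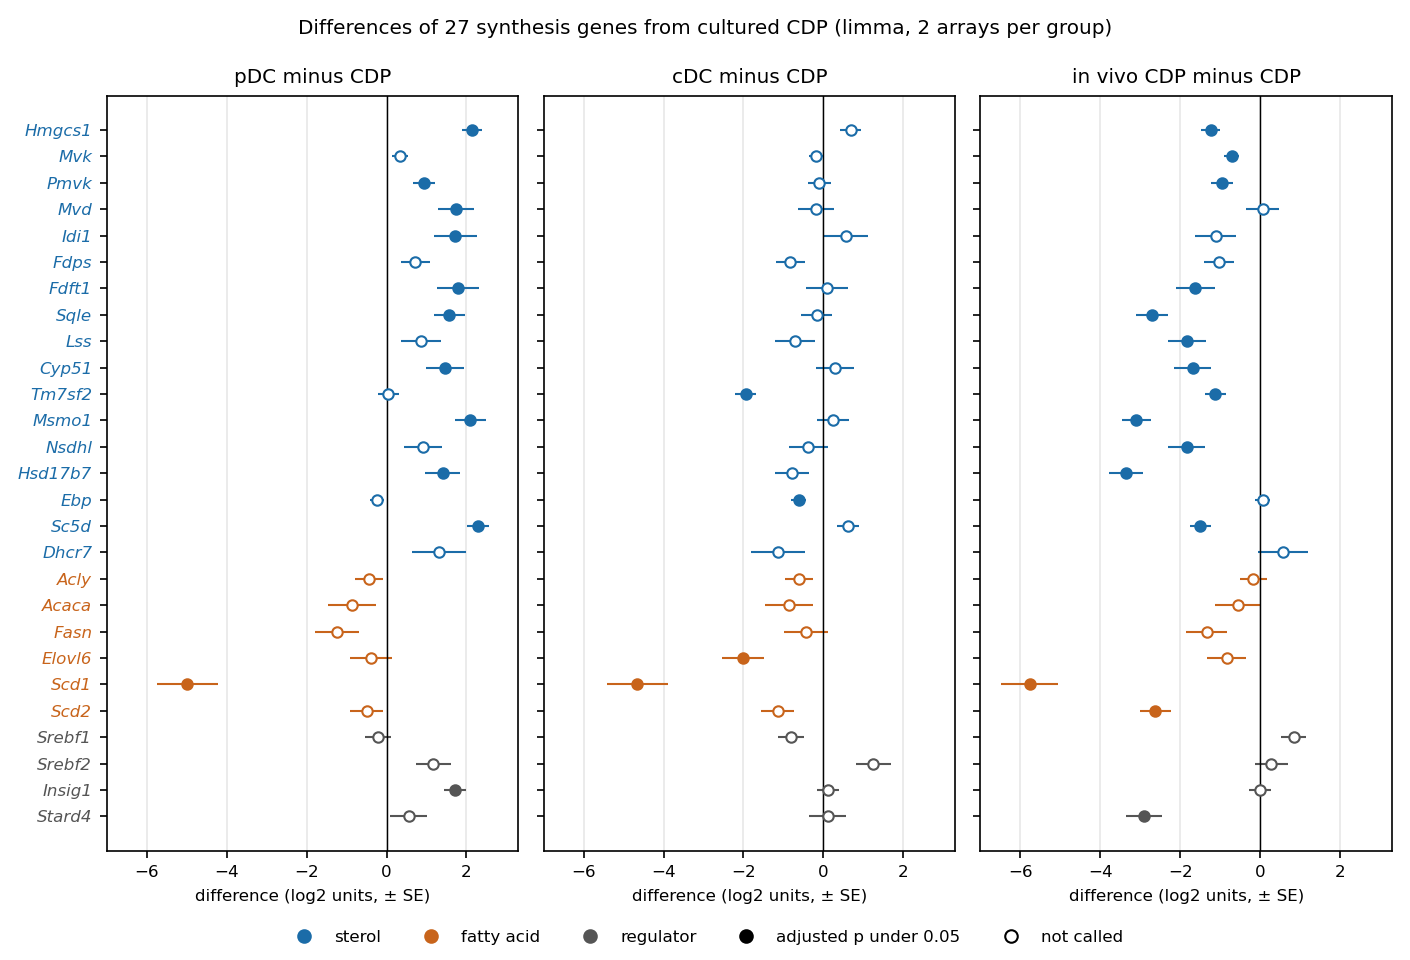
Each row is a gene, and the horizontal axis is the log2 difference from expanded CDP with limma's SE, for pDC, cDC and in vivo CDP. Filled points are called. The sterol genes lie mostly right of 0 in pDC with a median of 1.40, around 0 in cDC with a median of -0.17, and mostly left of 0 in the in vivo CDP panel with a median of -1.24. Without CDP replicate 2 the fatty acid medians were -0.03, -0.44 and -0.39, so their place in these panels depends on that array.

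In the fatty acid branch, Scd1 encodes a stearoyl-CoA desaturase that makes oleate. It measured 3.79 and 3.81 in pDC, against 8.06 and 9.51 in CDP. Both pDC arrays were under the low-value level of 5, so Scd1 was at least 13.8-fold lower in pDC (adjusted p = 0.00169, which tests the full difference of -4.98 ± 0.76). A second Scd1 probe set gave -3.85. The paralog Scd2 measured 13.22 and 13.33 in pDC, against 13.27 and 14.27 in CDP, and the arrays overlapped. Fasn, the fatty acid synthase, measured 8.41 and 8.35 in pDC, against 8.79 and 10.44 in CDP. The lower Fasn values in pDC did not pass the test (-1.24 ± 0.55, adjusted p = 0.0998), with CDP arrays that lay 1.65 apart. Acly, which makes cytosolic acetyl-CoA for both branches, measured 11.36 and 11.34 in pDC, against 11.40 and 12.17 in CDP and was not called.

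Among the control genes, Insig1 retains SCAP and is itself a known SREBP target. It measured 11.18 and 11.03 in pDC, against 8.97 and 9.82 in CDP (1.71 ± 0.28, 3.27-fold, adjusted p = 0.00235), with no overlap. Srebf2 measured 8.45 and 8.50 in pDC, against 6.65 and 7.96 in CDP. That Srebf2 difference of 1.17 ± 0.44 missed the threshold (adjusted p = 0.0600). In a limma fit with the replicate number as a block it passed (adjusted p = 0.0244). Srebf1 measured 8.40 and 8.28 in pDC, against 8.21 and 8.90 in CDP, and its arrays overlapped. Stard4, a cytosolic sterol carrier, was not called. Without the block, neither SREBP gene was thus called in pDC, where 10 sterol genes and Insig1 were. For Srebf2 this depended on the model.

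Other pathway genes, chosen as a list of 29 of which 21 were tested here, had 8 higher and 5 lower in pDC than in CDP. This share is not far from the 53.2% over all genes. Scap, the SREBP escort, was 2.08 ± 0.23 higher (adjusted p = 0.000477), and Aacs, which activates acetoacetate for lipid synthesis, was 1.53 ± 0.34 higher. Npc1, which exports cholesterol from lysosomes, measured 11.10 and 11.41 in pDC, against 7.28 and 6.47 in CDP (4.38 ± 0.49). Acsl3, a long-chain acyl-CoA synthetase, measured 5.23 and 5.20 in pDC, against 9.57 and 10.05 in CDP (-4.59 ± 0.25). The genes of that list with the largest differences in the 2 directions were thus a lysosomal transporter and an acyl-CoA synthetase.

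**Figure D3:**
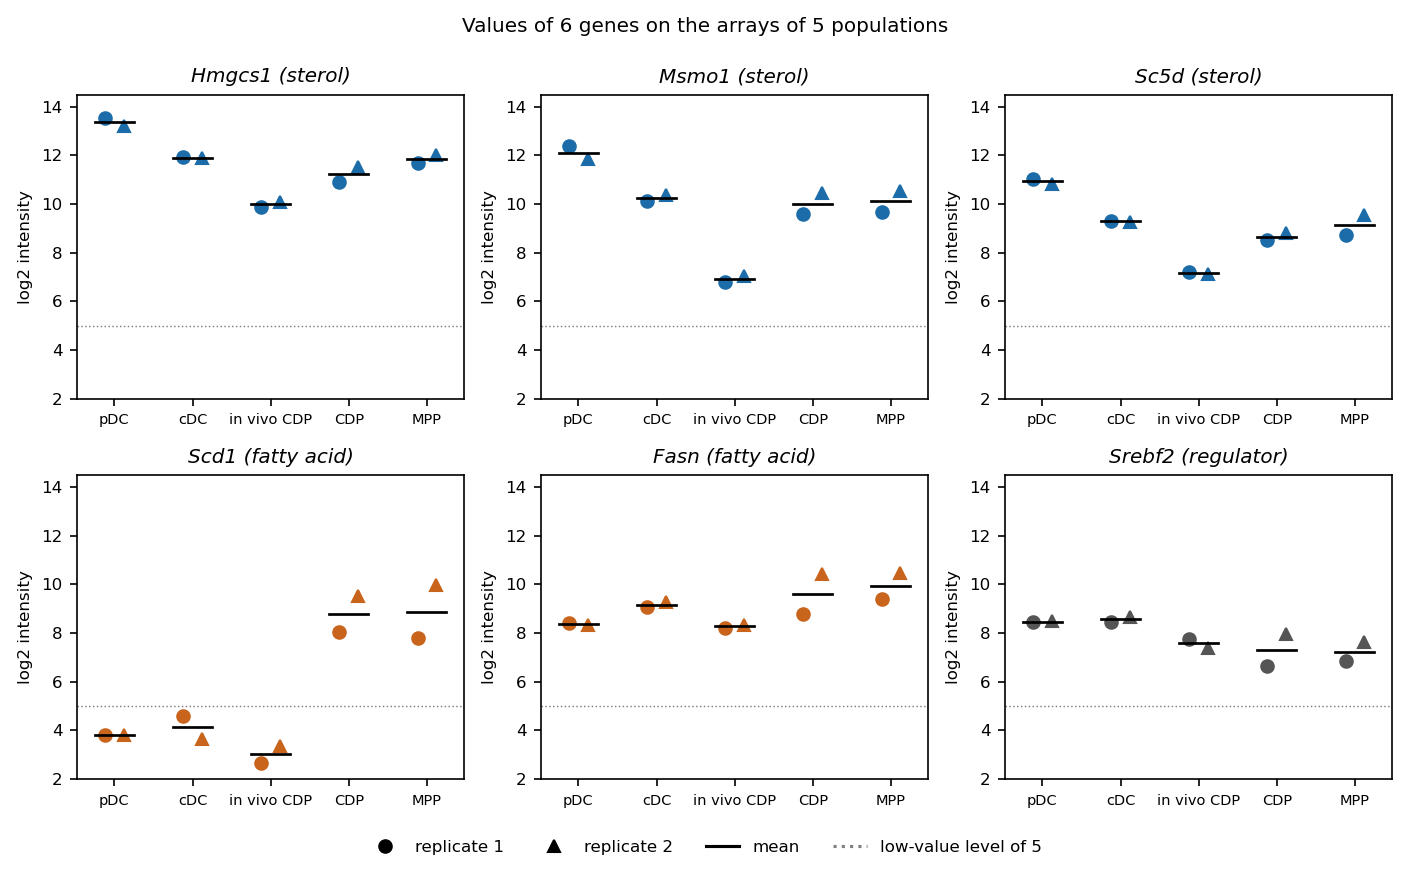
Points are log2 intensities on single arrays for 6 genes in pDC, cDC, in vivo CDP, CDP and MPP, with bars at the means and a dotted line at the low-value level of 5. Hmgcs1, Msmo1 and Sc5d are highest in pDC and lowest in vivo, and Scd1 is under 5 on both arrays of pDC, cDC and in vivo CDP.

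Against CDP, 4 of 27 genes were called lower in cDC and none higher, beside 48.0% of all genes tested called in either direction, 18.7% called higher and 29.3% called lower. The median sterol difference was -0.17 and the median fatty acid difference -1.0, against -0.16 over all genes. Without CDP replicate 1 these medians were -0.57 and -1.68, and without CDP replicate 2 they were 0.15 and -0.44, so the sign of the sterol median depended on the CDP array. The count was 8 without CDP replicate 1 (42.5% of all genes) and 2 without either cDC array (35.6% and 33.4%). Hmgcs1 measured 11.92 and 11.89 in cDC, against 10.91 and 11.54 in CDP (0.68 ± 0.26, adjusted p = 0.0644). Insig1 measured 9.53 and 9.48 in cDC, against 8.97 and 9.82 in CDP, and overlapped.

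The 4 genes called lower in cDC were Tm7sf2, Ebp, Elovl6 and Scd1. Tm7sf2, a sterol C-14 reductase, measured 4.52 and 4.58 in cDC, against 6.80 and 6.17 in CDP, at least 2.80-fold lower (adjusted p = 0.00150). Ebp measured 9.06 and 8.91 in cDC, against 9.65 and 9.56 in CDP (-0.62 ± 0.18, adjusted p = 0.0279). Elovl6, which extends palmitate, measured 7.13 and 7.31 in cDC, against 8.65 and 9.79 in CDP (-2.00 ± 0.52, adjusted p = 0.0185). Scd1 measured 4.61 and 3.66 in cDC, both under 5, which was at least 13.8-fold below CDP (adjusted p = 0.00298). Scd1 was thus under 5 on all arrays of cDC and pDC. Fasn measured 9.08 and 9.26 in cDC, against 8.79 and 10.44 in CDP, and overlapped. Srebf2 measured 8.46 and 8.66 in cDC, against 6.65 and 7.96 in CDP (1.25 ± 0.44, adjusted p = 0.0517, and 0.0214 with the replicate block). Srebf1 measured 7.78 and 7.72 in cDC, against 8.21 and 8.90 in CDP (-0.81 ± 0.33, adjusted p = 0.0814, and 0.0604 with the block). Of the 21 other pathway genes, 1 was higher in cDC, Abcg1 (1.99 ± 0.39), an LXR-driven exporter of cholesterol, and 6 were lower, among them Acsl3, Fads2 and Fads1. The last 2 are fatty acid desaturases.

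The direct comparison of the mature cells set the branches apart. In pDC against cDC, 11 of 27 genes were called, all higher, beside 25.5% of all genes called in either direction and 12.7% called higher. All 17 sterol differences were positive, with a median of 1.56 and 10 called, and the 6 fatty acid differences had a median of 0.08 with none called (1 had an unadjusted p under 0.05). The median over all genes tested was 0.00. The count was 4 without either cDC array or pDC replicate 1, where 14.4% to 16.8% of all genes were called, and also 4 with no filter on low values, where 1973 of 14102 genes were called. Markers of other cell types differed between these samples. The 4 monocyte and macrophage markers averaged 6.12 and 7.49 in pDC, against 7.79 and 7.99 in cDC, and the pDC arrays differed for Adgre1 (4.32 on replicate 1 and 8.86 on replicate 2). The 4 mast cell and basophil markers averaged 2.54 and 2.63 in pDC, against 3.28 and 5.07 in cDC, and the 6 granulocyte markers 3.51 and 3.57 in pDC, against 3.90 and 3.95 in cDC. All 3 list means were lower in pDC without overlap, but the mast cell and granulocyte lists lay mostly under 5. Prtn3, the 1 granulocyte marker above 5 on both arrays, overlapped (7.70 and 7.37 in pDC, 7.52 and 7.50 in cDC). Of the monocyte and macrophage markers, Adgre1 and Cd14 were lower in pDC. Cd68 ran the other way, with 10.96 and 10.93 in pDC, against 10.74 and 10.51 in cDC. The part of these lists in the result was not tested.

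Dhcr7, the last reductase of cholesterol synthesis, measured 7.95 and 7.85 in pDC, against 5.58 and 5.34 in cDC (2.44 ± 0.68, 5.44-fold, adjusted p = 0.0381). Hsd17b7 measured 8.83 and 8.26 in pDC, against 6.33 and 6.38 in cDC (2.19 ± 0.43, adjusted p = 0.0105). Tm7sf2 measured 6.79 and 6.27 in pDC, against 4.52 and 4.58 in cDC, at least 2.89-fold higher (adjusted p = 0.00197). None of these arrays overlapped between groups. Mvd (1.93 ± 0.45), Msmo1 (1.85 ± 0.39), Sqle (1.73 ± 0.39), Sc5d (1.66 ± 0.28) and Fdps (1.55 ± 0.36) were higher too. Hmgcs1 measured 13.52 and 13.22 in pDC, against 11.92 and 11.89 in cDC (1.46 ± 0.26, adjusted p = 0.00643). Pmvk was the tenth sterol gene called, and Insig1 was higher by 1.60 ± 0.28. Srebf2 differed by -0.09 ± 0.44 and Srebf1 by 0.59 ± 0.33 (adjusted p = 0.921 and 0.246). Fasn had a difference of -0.79 ± 0.55 and Elovl6 of 1.62 ± 0.52 (adjusted p = 0.354 and 0.0633). Of the 21 other pathway genes 7 were higher in pDC and 2 lower, with Npc1 (3.22 ± 0.49), Fads2 (2.16 ± 0.41) and Scap (2.10 ± 0.23) on the higher side.

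Between the expanded progenitors no gene of the 27 was called in CDP against MPP with limma, beside 7.51% of all genes tested (3.99% higher and 3.52% lower), and 1 had an unadjusted p under 0.05. The median sterol difference was -0.34 and the median fatty acid difference -0.28. Both were smaller than the array gaps of 0.86 to 1.29 described above, and their sign turned with single arrays. The sterol median was 0.06 without CDP replicate 1 and -0.63 without CDP replicate 2, and 0.12 without MPP replicate 2 and -0.80 without MPP replicate 1. The fatty acid median with the same arrays left out was 0.43 and -0.94, and 0.21 and -0.88. Without CDP replicate 2 the count was 2, with 5.28% of all genes called. Hmgcs1 measured 10.91 and 11.54 in CDP, against 11.68 and 12.02 in MPP (-0.63 ± 0.26, adjusted p = 0.236). Fasn measured 8.79 and 10.44 in CDP, against 9.39 and 10.48 in MPP. Srebf1, Srebf2 and Insig1 also had overlapping arrays in these progenitors. Mylip, the LXR-induced ubiquitin ligase of the LDL receptor, was the 1 other pathway gene called (1.31 ± 0.25 higher in CDP). Mast cell and basophil markers averaged 3.90 and 4.07 in CDP and 9.54 and 9.61 in MPP.

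The CDP taken directly from marrow had low sterol transcripts. In vivo CDP against expanded CDP gave 15 of 27 genes called, all lower, beside 47.1% of all 9121 genes called in either direction, 27.6% called higher and 19.5% called lower. The sterol branch had 12 of 17 lower and a median of -1.24, and the fatty acid branch had 2 of 6 lower and a median of -1.09, while the median over all genes was 0.10. Without CDP replicate 1 these medians were -1.65 and -1.79, and without CDP replicate 2 they were -1.01 and -0.39. The count ranged between 10 without in vivo CDP replicate 1 and 17 without CDP replicate 1, where 33.7% and 40.4% of all genes were called. The in vivo samples used a different extraction kit and a 3′ IVT labelling kit on 50 ng of RNA, against a one-cycle kit on 1 µg for expanded CDP. Kit, RNA amount and origin therefore cannot be told apart in this comparison. The Gapdh 3′ probe set exceeded the 5′ one by 0.98 and 0.47 on the in vivo CDP arrays, against -0.15 and 0.19 on the CDP arrays, and the same measure for actin was 1.39 and 1.09 in vivo, against 1.23 and 2.11 in CDP. Its part in the result was not tested.

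Hsd17b7 measured 3.49 and 4.07 in vivo, against 6.46 and 7.82 in expanded CDP, at least 4.41-fold lower (adjusted p = 0.000516). Msmo1 measured 6.78 and 7.05 in vivo, against 9.58 and 10.45 in expanded CDP (-3.10 ± 0.37, 8.59-fold lower, adjusted p = 0.000379). Sqle measured 6.12 and 6.81 in vivo, against 8.68 and 9.66 in expanded CDP (-2.71 ± 0.40, 6.53-fold lower). In each case the groups were far apart relative to their arrays. Nsdhl, a dehydrogenase of C-4 demethylation, measured 6.52 and 6.98 in vivo, against 8.08 and 9.11 in expanded CDP (-1.84 ± 0.45). Lss, which cyclises oxidosqualene to lanosterol, measured 5.13 and 5.71 in vivo, against 6.68 and 7.83 in expanded CDP (-1.84 ± 0.48). Cyp51 measured 7.99 and 7.56 in vivo, against 8.92 and 10.01 in expanded CDP (-1.69 ± 0.45). Early and late steps were thus both lower. Fdft1 measured 8.22 and 8.01 in vivo, against 9.06 and 10.43 in expanded CDP (-1.63 ± 0.48, adjusted p = 0.0244), and Hmgcs1 measured 9.89 and 10.07, against 10.91 and 11.54 (-1.24 ± 0.24, adjusted p = 0.00397). Sc5d, Tm7sf2, Pmvk and Mvk were lower too, with differences of -1.50 to -0.71. Mvd, Dhcr7 and Ebp had small positive differences of 0.06 to 0.57 and were not called.

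Scd1 measured 2.66 and 3.37 in vivo, both under 5, and was at least 13.8-fold lower than in CDP (adjusted p = 0.000486). Scd2 measured 11.03 and 11.26 in vivo, against 13.27 and 14.27 in expanded CDP (-2.62 ± 0.39, 6.17-fold lower, adjusted p = 0.00107). Both desaturases were therefore lower. Fasn measured 8.22 and 8.32 in vivo, against 8.79 and 10.44 in expanded CDP (-1.34 ± 0.51, adjusted p = 0.0592). Stard4 measured 6.23 and 6.92 in vivo, against 8.79 and 10.17 in expanded CDP (-2.90 ± 0.45, 7.48-fold lower, adjusted p = 0.00140). Neither SREBP gene was called in the fit without a block. Srebf1 measured 9.29 and 9.51 in vivo, against 8.21 and 8.90 in expanded CDP (0.84 ± 0.31, adjusted p = 0.0535, and 0.0357 with the replicate block). Srebf2 differed by 0.28 ± 0.42, and Insig1 by 0.00 ± 0.27. Of the 21 other pathway genes 4 were higher and 7 lower, with Acsl3 (-2.81 ± 0.24) and Mylip (-2.67 ± 0.27) lower and Scap (1.31 ± 0.23) and Mbtps1 (1.01 ± 0.18), a protease that cleaves SREBP, higher.

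Under TGF-β1 the sterol genes had a median near that of 0 h at 4 h and above it from 8 h. The median sterol difference from 0 h was -0.01 at 4 h and 0.89 at 8 h, then 0.75 at 12 h and 0.76 at 24 h. The fatty acid medians at these times were 0.07, 0.15, 0.44 and 0.04. Their sign depended on single arrays at 4 h, with -0.34 without 0 h replicate 1 and -0.33 without 4 h replicate 2, and at 24 h, with -0.07 without 0 h replicate 1, -0.24 without 24 h replicate 1 and 0.31 without 24 h replicate 2. At 12 h the fatty acid median was 0.27 without 12 h replicate 1. Medians over all genes tested were 0.01, 0.01, 0.01 and 0.00. At 8 h all 17 sterol differences were above 0. The highest mean fell at 8 h for 9 sterol genes, at 12 h for 6 and at 24 h for 2, and the lowest at 0 h for 8 and at 4 h for 9. Of the treated times, 8 h alone had no array with a large Gapdh 3′ excess. On the replicate 2 arrays, Hmgcs1 and Sc5d of those 9 genes were highest at 8 h. Mvk, Fdps, Sqle, Cyp51, Msmo1, Nsdhl and Ebp were highest on those arrays at 12 or 24 h. Shares of all genes by time of the highest mean were not computed. The 4 control genes had medians of 0.18, 0.47, 0.89 and 0.72.

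Few of these differences were called in the unpaired fit. With limma, 0 of 27 genes were called at 4 h (2 had an unadjusted p under 0.05), 1 was at 8 h, 5 were at 12 h and 8 at 24 h, all higher. Over all 12655 genes tested, 0.648%, 1.55%, 5.38% and 19.3% were called in either direction, 0.569%, 1.20%, 3.70% and 10.8% higher, and 0.0790%, 0.348%, 1.68% and 8.43% lower. The moderated F-test over all times called 7 of 27, each a sterol gene, beside 9.74% of all genes. The labels name no pairs, but same-numbered arrays shared deviations from their group means. These correlated 0.67 to 0.85 among 4, 12 and 24 h, whose replicate 1 arrays had low 5′ signal, and 0.27 to 0.54 between other times. The source of the shared deviations was not tested. With the replicate number as a block, 0, 6, 14 and 13 genes were called at 4, 8, 12 and 24 h, and 15 by the F-test. The blocked background was 1.21%, 4.48%, 12.1% and 30.1% in either direction, 0.956%, 2.80%, 7.51% and 16.2% higher, and 20.4% for the F-test. Of the blocked calls, all were higher except Elovl6 at 24 h. Without the 3 arrays with low 5′ signal, 0, 10, 11 and 13 genes were called, and 11 by the F-test, against a background of 1.14%, 9.73%, 12.9% and 31.9% in either direction, 0.818%, 5.60%, 7.51% and 16.7% higher, and 19.3% for the F-test. Leaving out 1 array at a time, the count was 4 at 4 h without 4 h replicate 2, 1 higher and 3 lower. That fit leaves the 4 h array with low 5′ signal and called 10.5% of all genes, 3.41% higher, and 23.4% by the F-test. The count was 0 at 8 h and at 12 h without any array of the 2 groups compared. At 24 h it was lower than in the full fit with any 1 array of 0 h or 24 h left out. Over all genes tested the number called also fell in each of these fits at 8, 12 and 24 h, so the fall was not confined to the 27 genes. By the F-test both numbers fell when an array of 0, 8, 12 or 24 h was left out. The F-test number over all genes rose when a 4 h array was left out.

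**Figure D4:**
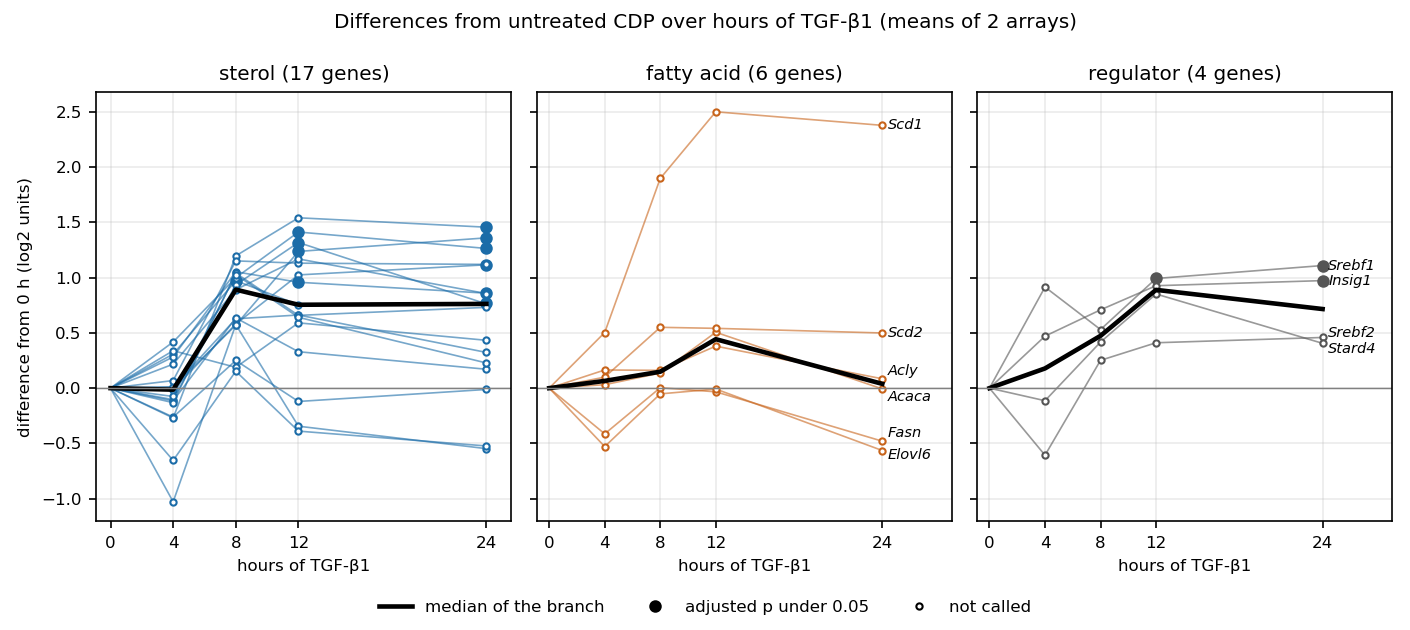
Lines are the log2 differences of gene means from 0 h over hours of TGF-β1 for the sterol, fatty acid and control genes, black lines are branch medians, and large filled points are called. The sterol median is -0.01 at 4 h and 0.89 at 8 h, and Scd1 stands above the other fatty acid genes with 2.50 at 12 h.

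Hmgcs1 was the gene called at 8 h. Its values were 11.65 and 11.85 at 0 h, 12.14 and 11.97 at 4 h, 12.92 and 12.52 at 8 h, 12.57 and 12.44 at 12 h, and 12.52 and 12.51 at 24 h. All 8 treated arrays lay above both 0 h arrays, by 0.97 ± 0.18 at 8 h (adjusted p = 0.0476) and by 0.77 ± 0.18 at 24 h (adjusted p = 0.0220). Cyp51 measured 9.57 and 9.64 at 0 h, 9.95 and 9.82 at 4 h, 10.93 and 10.38 at 8 h, 10.62 and 10.50 at 12 h, and 10.58 and 10.34 at 24 h. It was 0.96 ± 0.21 higher at 12 h (adjusted p = 0.0369) and 0.86 ± 0.21 higher at 24 h (adjusted p = 0.0229). Both genes thus reached their highest mean at 8 h and stayed above 0 h, though Cyp51 on replicate 2 was highest at 12 h.

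Other genes had their highest mean later. Lss measured 8.49 and 9.03 at 0 h, 8.43 and 8.88 at 4 h, 9.60 and 9.78 at 8 h, 10.19 and 9.96 at 12 h, and 9.44 and 9.60 at 24 h. Its 12 h difference of 1.32 ± 0.24 was called (adjusted p = 0.0201), and at 24 h it was not (adjusted p = 0.0584). Tm7sf2 measured 7.55 and 7.50 at 0 h, 7.33 and 7.74 at 4 h, 7.86 and 8.32 at 8 h, 8.66 and 8.86 at 12 h, and 8.57 and 9.19 at 24 h. It was 1.24 ± 0.26 higher at 12 h (adjusted p = 0.0347) and 1.36 ± 0.26 higher at 24 h (adjusted p = 0.00911), the lowest adjusted p of the 27 genes at that time. Pmvk measured 8.61 and 9.16 at 0 h, 8.74 and 9.01 at 4 h, 9.23 and 9.70 at 8 h, 9.82 and 9.9999 at 12 h, and 9.86 and 10.14 at 24 h. Mvd measured 7.78 and 8.53 at 0 h, 7.33 and 8.44 at 4 h, 9.15 and 9.55 at 8 h, 9.82 and 9.57 at 12 h, and 9.58 and 9.64 at 24 h. Both were called at 24 h alone, by 1.11 ± 0.25 and 1.45 ± 0.38 (adjusted p = 0.0174 and 0.0329).

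Fdft1 measured 9.49 and 9.97 at 0 h, 10.41 and 9.89 at 4 h, 10.63 and 10.82 at 8 h, 11.34 and 10.94 at 12 h, and 11.24 and 10.75 at 24 h. It was called at 12 h (1.41 ± 0.28, adjusted p = 0.0267) and 24 h (1.26 ± 0.28, adjusted p = 0.0159). Its probe sets disagreed: at 24 h one other gave 0.66 and a pair gave -0.07 and -0.14. Fdps and Ebp were low on the 3 arrays with low 5′ signal. Fdps measured 9.67, 10.23 and 10.12 on the replicate 1 arrays of 4, 12 and 24 h and 11.66 to 12.86 on the other 7 arrays, and Ebp measured 9.24 to 9.46 on those 3 arrays and 10.59 to 11.06 on the others. Without the 3 arrays their 12 h differences were 0.97 for Fdps (adjusted p = 0.0331) and 0.41 for Ebp (adjusted p = 0.173).

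In the fatty acid branch no gene was called at any time in the unpaired fit. Scd1 measured 7.36 and 9.73 at 0 h, 8.06 and 10.04 at 4 h, 9.65 and 11.23 at 8 h, 10.60 and 11.49 at 12 h, and 10.71 and 11.13 at 24 h. Replicate 2 was above replicate 1 at each time, and within each replicate number the 24 h array lay above the 0 h array. The difference at 24 h was 2.38 ± 0.91 (adjusted p = 0.117), and with the replicate block its adjusted p was 0.0434 at 8 h, 0.00771 at 12 h and 0.00355 at 24 h. Fasn measured 11.02 and 11.31 at 0 h, 10.32 and 11.18 at 4 h, 11.03 and 11.31 at 8 h, 11.08 and 11.19 at 12 h, and 10.61 and 10.76 at 24 h. Its 24 h difference was -0.48 ± 0.28 (adjusted p = 0.290). Elovl6 had -0.56 ± 0.19 at 24 h (adjusted p = 0.0727, and 0.0470 with the block). Acly, Acaca, the acetyl-CoA carboxylase, and Scd2 stayed within -0.01 to 0.55 of 0 h at all times.

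Of the control genes, Srebf1 and Insig1 rose. Srebf1 measured 10.35 and 10.69 at 0 h, 11.68 and 11.19 at 4 h, 10.99 and 11.11 at 8 h, 11.55 and 11.47 at 12 h, and 11.81 and 11.45 at 24 h. It was 0.99 ± 0.22 higher at 12 h (adjusted p = 0.0426) and 1.11 ± 0.22 higher at 24 h (adjusted p = 0.0108). At 4 h its difference of 0.91 ± 0.22 was the highest of the 27 genes and was not called (adjusted p = 0.206). Insig1 measured 9.50 and 9.77 at 0 h, 10.24 and 9.96 at 4 h, 10.37 and 10.31 at 8 h, 10.76 and 10.35 at 12 h, and 10.89 and 10.32 at 24 h, with 0.97 ± 0.24 at 24 h (adjusted p = 0.0264). Srebf2 measured 9.57 and 9.74 at 0 h, 8.52 and 9.59 at 4 h, 9.85 and 9.97 at 8 h, 9.94 and 10.20 at 12 h, and 9.90 and 10.33 at 24 h, and was not called at any time (adjusted p = 0.409 at 24 h). Without the 3 arrays its 24 h adjusted p was 0.0189.

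Genes of cholesterol export and LXR response were called at 4 h, when none of the 27 genes was. Of 24 other pathway genes tested, 3 were called at 4 h and 4 at 8 h. The number was 6 at 12 h and 9 at 24 h, and all were higher. Over all genes tested the shares called at these times also rose, with 0.648%, 1.55%, 5.38% and 19.3% in either direction. The shares called higher were 0.569%, 1.20%, 3.70% and 10.8%. The 3 at 4 h belong to a list of 7 LXR, export and lysosomal genes. Abca1, the LXR-driven cholesterol exporter, measured 5.05 and 5.37 at 0 h, 7.88 and 7.72 at 4 h, 6.73 and 7.23 at 8 h, 7.02 and 7.06 at 12 h, and 8.23 and 7.88 at 24 h. Its difference was 2.59 ± 0.22 at 4 h (adjusted p = 0.00278) and 2.85 ± 0.22 at 24 h. Abcg1 (1.69 ± 0.19) and Mylip (1.73 ± 0.24) were the others at 4 h. Npc1 was higher at 8, 12 and 24 h, by 1.35, 1.61 and 2.24. Acss2, which makes acetyl-CoA from acetate, was 2.22 ± 0.32 higher at 12 h and 2.63 ± 0.32 higher at 24 h, and Lpin1, a phosphatidate phosphatase and known SREBP target, was higher at 8, 12 and 24 h. Of the lists of other pathway genes, the one for sterol synthesis and SREBP control had 1 of 6 called at 24 h, Scap (0.94 ± 0.15).

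Cell type marker levels differed over the same hours. The 6 cDC markers averaged 8.97 and 9.54 at 24 h, against 6.85 and 7.12 at 0 h. The 6 granulocyte markers averaged 6.48 and 6.54 at 24 h, against 8.07 and 8.09 at 0 h. Of these, Mpo, Prtn3, Ctsg and Mmp8 were lower without overlap, and Ltf overlapped. Elane was slightly higher, with 5.46 and 5.51 at 24 h, against 5.39 and 5.40 at 0 h. The 6 pDC markers averaged 7.22 and 7.89 at 24 h, against 6.79 and 7.003 at 0 h. Among them Siglech (8.08 and 9.80 at 24 h, 6.25 and 6.11 at 0 h) and Ly6d rose without overlap. Bst2, Tcf4 and Spib overlapped, and Ccr9 was under 5. The 4 CDP markers averaged 11.20 and 11.47 at 24 h, against 10.79 and 10.84 at 0 h. The 4 monocyte and macrophage markers averaged 6.25 and 6.71 at 24 h, against 7.41 and 7.47 at 0 h, so the means of none of these lists overlapped between these times. Prtn3 and Cd68 were lower on the 24 h replicate 1 array, which had low 5′ signal, than on replicate 2. Prtn3 measured 11.12 and 12.92 there, and Cd68 8.55 and 9.72. At 8 h the cDC markers averaged 7.83 and 7.86, the granulocyte markers 7.58 and 7.70, the pDC markers 6.94 and 7.30, and the monocyte and macrophage markers 7.11 and 7.11. Their part in the lipid gene differences was not tested.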

How the data were processed

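RNA of 20 samples was measured on Affymetrix Mouse 430 2.0 arrays. The deposited values are log2 intensities per probe set, and the submitters' processing notes name GCRMA, with its version not given in the sources used here. Per the labels' protocols, 1 µg RNA was labelled with a one-cycle kit for MPP, CDP, cDC and pDC, and a 3′ IVT kit was used with 250 ng for the TGF-β1 arrays and 50 ng for in vivo CDP. The table held 45101 probe sets, 64 of them controls that were left out. A platform annotation of 2016 gave 1 symbol to 34945 probe sets and several to 932, and unnamed or multiply named ones were not used. Of 18193 genes, 9010 had more than 1 probe set, and the one with the highest mean over 20 arrays was taken. No further scaling was applied.

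Differences were fitted with limma 3.58.1 in R 4.3.3 (lmFit, eBayes, trend and robust off) on 8 arrays for pDC, cDC, CDP and MPP, on 10 with in vivo CDP added, and on the 10 TGF-β1 arrays, with a moderated F-test over times. Genes above 5 on at least 2 arrays were tested, and adjusted p is Benjamini-Hochberg over all of these, two-sided, at 0.05. The script was tested on simulated data. If neither array of the lower group reached 5, the fold was computed against 5 and is written "at least". Errors after ± are limma's SE, and the number of arrays limits precision.

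The members and lists were chosen with earlier results of these data known. Named genes are members called in a comparison, up to the 10 largest differences, always Srebf1, Srebf2, Insig1, Hmgcs1 and Fasn, and up to 6 other pathway genes per comparison. The motifs and the printed sequences were chosen after the values were seen. Of 29 other pathway genes 24 were measured, and of 51 cell type markers 47. Deviations from group means correlated 0.27 to 0.85 between groups for same-numbered TGF-β1 arrays, and -0.06 to 0.58 for MPP, CDP, cDC and pDC. The labels name no pairs, so the replicate number was used as a block only as an alternative. Alternatives were another scaling, filter, floor, probe set rule, variance model, a replicate block and leaving out arrays.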

Additional observations from a re-analysis of the deposited data

How the results depend on the processing

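Single genes were followed under the alternatives for up to the 10 largest called differences of each comparison. Srebf1, Srebf2, Insig1, Hmgcs1 and Fasn were always followed. No called difference among these turned its sign under any alternative run, and other called genes were not followed. Of 1050 values of single genes under alternatives, 870 kept their direction and side of the threshold, 124 lost the call, 33 gained one, and 23 changed sign with neither value called. The members called moved by over 1.5 times as follows, and the cause was not tested beyond what each setting leaves out. With no filter on low values, pDC vs CDP had 5 called and pDC vs cDC 4. At 8 h of TGF-β1, centring on array medians, quantile normalization and the trend and robust variance model each gave 0, and the last of these gave 4 by the F-test over times. The replicate block gave 6 at 8 h, 14 at 12 h, 13 at 24 h and 15 by the F-test, and it moved no other count by over 1.5 times. Leaving out the 3 arrays with low 5′ signal gave 10, 11, 13 and 11. Over all genes, the block gave 153, 567, 1534 and 3810 called at 4, 8, 12 and 24 h, against 82, 196, 681 and 2438 without it, and leaving out the 3 arrays gave 142, 1213, 1603 and 3971. On the population arrays, same-numbered deviations correlated 0.58 between MPP and CDP, 0.44 between cDC and pDC and 0.11 between CDP and cDC, but -0.06 to 0.01 between the other groups, so the numbers were not taken as pairs. The block there gave 15 for pDC vs CDP, 6 for cDC vs CDP, 14 for pDC vs cDC, 0 for CDP vs MPP and 18 for in vivo CDP vs CDP. Leaving out each array in turn gave 5 to 14 for pDC vs CDP, 2 to 8 for cDC vs CDP, 4 to 9 for pDC vs cDC, 0 to 2 for CDP vs MPP, 10 to 17 for in vivo CDP vs CDP, 0 to 4 at 4 h, 0 at 8 h and 12 h, 0 to 5 at 24 h, and 0 to 13 by the F-test. In these fits the lone array is assumed to vary like the other groups. The number called over all genes also fell in those of 8, 12 and 24 h. Over all alternatives the sterol median ranged between 0.92 and 2.06 for pDC vs CDP, -0.57 and 0.15 for cDC vs CDP, 1.26 and 1.76 for pDC vs cDC, -0.80 and 0.12 for CDP vs MPP, -1.65 and -1.01 for in vivo CDP vs CDP, -0.20 and 0.17 at 4 h, 0.63 and 1.07 at 8 h, 0.66 and 0.97 at 12 h, and 0.52 and 0.89 at 24 h. The fatty acid median ranged in the same order between -1.35 and -0.03, -1.68 and -0.44, 0.04 and 0.13, -0.94 and 0.43, -1.79 and -0.39, -0.34 and 0.21, 0.04 and 0.26, 0.08 and 0.57, and -0.24 and 0.31. Values near the floor carry no order.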
